A study of Mus musculus with 24 samples.

Results

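Peaks of N6-methyladenosine (m6A) that hold the stop codon of a gene are described here in kidneys of 12 mice. A peak was counted when it contained the stop codon of the coding transcript with the longest coding sequence of its protein-coding gene, on the strand of the gene, in a gene with 2 or more exons, and did not contain the start codon of that transcript. By this rule 20765 of 91013 listed peaks held a stop codon, and they belonged to 3753 of the 20100 genes whose stop codon could be held. The peaks came from methylated RNA immunoprecipitation sequencing (MeRIP-seq), in which RNA fragments are pulled down with an antibody against m6A and regions where reads pile up are called as peaks. The mice were male C57BL/6 animals, 8 weeks old. Of these, 4 controls received vehicle only, 4 mice of the injury group (IG) received vehicle and then cisplatin at 20 mg/kg by intravenous injection, and 4 mice of the treatment group (TG) received berberine at 20 mg/kg per day into the peritoneum for 14 days and the same dose of cisplatin. Kidneys were taken 72 h after the injection in all 3 groups. IG was compared with controls (IvC) and TG with IG (TvI), and both comparisons use the same IG kidneys. No group received berberine without cisplatin, and whole kidneys were measured, so that all cell types of the organ contribute to each list.

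m6A is the most abundant internal modification of messenger RNA. It is placed by a nuclear writer complex around METTL3 and METTL14, can be removed by FTO and ALKBH5, and is read by YTH domain proteins that act on splicing, export, translation and decay. It is known to be concentrated around stop codons and in long internal exons, where a purine, another purine, the methylated A, a C and then A, C or T form the consensus. Cisplatin is a DNA-damaging drug that injures the proximal tubule, and berberine is a plant alkaloid.

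The stop codons on which the following results turn are shown with 45 coding bases before and 12 bases after them (GRCm38, 5′ to 3′ on the strand of the gene), in lower case with the stop codon (bases 46 to 48) and each consensus site in capitals. Where capitals run on from the stop codon, a site adjoins or overlaps it. The first set had a peak in 4 of 4 IG kidneys and 0 of 4 control kidneys.
Mettl26 (chr17:25876950-25877009, plus strand): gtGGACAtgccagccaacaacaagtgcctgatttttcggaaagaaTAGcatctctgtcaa
Atp6v1b1 (chr6:83758446-83758505, plus strand): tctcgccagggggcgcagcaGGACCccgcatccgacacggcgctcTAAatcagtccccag
Scaf4 (chr16:90229286-90229345, minus strand): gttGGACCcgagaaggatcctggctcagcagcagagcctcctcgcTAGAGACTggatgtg
The next set had a peak in 4 of 4 control kidneys and 0 of 4 IG kidneys.
Prpf38b (chr3:108903907-108903966, minus strand): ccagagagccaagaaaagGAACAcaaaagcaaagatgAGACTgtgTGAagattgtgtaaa
Tmem252 (chr19:24677765-24677824, plus strand): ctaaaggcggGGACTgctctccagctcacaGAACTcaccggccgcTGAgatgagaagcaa
Pnrc1 (chr4:33246052-33246111, minus strand): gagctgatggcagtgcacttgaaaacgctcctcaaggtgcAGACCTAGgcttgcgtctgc
A further set had a peak in 4 of 4 TG kidneys and 0 of 4 IG kidneys.
Auts2 (chr5:131439424-131439483, minus strand): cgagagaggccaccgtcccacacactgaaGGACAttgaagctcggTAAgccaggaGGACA
Nefm (chr14:68120025-68120084, minus strand): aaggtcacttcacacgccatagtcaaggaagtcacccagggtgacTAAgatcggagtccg
Atg5 (chr10:44363005-44363064, plus strand): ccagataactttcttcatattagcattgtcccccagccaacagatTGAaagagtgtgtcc
Another set had a peak in 4 of 4 IG kidneys and 0 of 4 TG kidneys.
Mtss1 (chr15:58943418-58943477, minus strand): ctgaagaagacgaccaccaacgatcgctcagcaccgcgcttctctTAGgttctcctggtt
Nipal4 (chr11:46150134-46150193, minus strand): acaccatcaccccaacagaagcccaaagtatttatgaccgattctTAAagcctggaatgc
The last set had a peak in all 12 kidneys, with scores of at least 3100 in each.
Tchh (chr3:93448007-93448066, plus strand): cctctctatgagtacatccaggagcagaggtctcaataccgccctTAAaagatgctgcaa
Atpif1 (chr4:132530670-132530729, minus strand): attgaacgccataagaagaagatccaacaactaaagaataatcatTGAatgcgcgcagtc
Hmgn5 (chrX:109005097-109005156, minus strand): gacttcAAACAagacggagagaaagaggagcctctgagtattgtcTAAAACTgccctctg
Ppig (chr2:69750335-69750394, plus strand): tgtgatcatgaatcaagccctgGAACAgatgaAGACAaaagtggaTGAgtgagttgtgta
Of these 15 windows, 9 held a consensus site, and of 19561 windows of the same length around the stop codons of all genes 64.2% did. A match of the letters is a description and not a methylated site.

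A list gives for each peak its position, its strand and a score, which is its p-value as a negative log10, times 10. The lists held 8531 to 9579 peaks in controls, 6745 to 8357 in IG and 5901 to 6753 in TG. The reads behind the peaks are not in these lists, so the depth of each library is unknown here and the input libraries were not analysed. A stop codon that lacks a peak is therefore not shown to lack m6A, and less methylation, less of the transcript and fewer cells of a type that expresses it cannot be told apart. Scores rise with depth and expression, so they were ranked within each list. The score 3100 was the most common value, held by 1086 peaks, of which 256 held a stop codon, and scores at that value do not rank. Marker genes could not check the tissue label, because many abundant kidney transcripts had no listed peak: this held for 8 of 10 proximal tubule markers, among them Lrp2 and Slc34a1, and for 3 of 4 markers of the thick ascending limb. Of 5 podocyte markers 4 had a peak, as did 4 of 5 of endothelium, 3 of 6 of the collecting duct, 1 of 4 of the distal tubule, 2 of 5 of fibroblasts, 2 of 6 of macrophages and 1 of 4 of hepatocytes.

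Most stop codon peaks filled the coding end of the last exon and ran on into the 3′ UTR. Their median width over all kidneys was 1154 bp, with quartiles of 776 and 1761 bp and a range from 49 to 7850 bp. In the mean kidney 98.5 ± 0.136% (SD, n = 12) lay at a stop codon in the last exon of its transcript. The 5′ end of the peak fell within 1 bp of the 5′ edge of the stop codon exon in 91.0 ± 0.787% and the 3′ end within 1 bp of its 3′ edge in 17.9 ± 1.402%. Both edges were met by 16.3 ± 1.30% and neither by 7.45 ± 0.833%. A peak with the bounds of a whole annotated exon made up 20.2 ± 1.36%. The median peak started 318 ± 21.0 bp before the stop codon and ended 636 ± 31.9 bp after it (SD, n = 12 kidneys). Thus the start of these peaks followed an exon boundary, and their end mostly did not. Only 50 of the 20765 peaks held the stop codons of 2 or more genes.

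**Figure D1:**
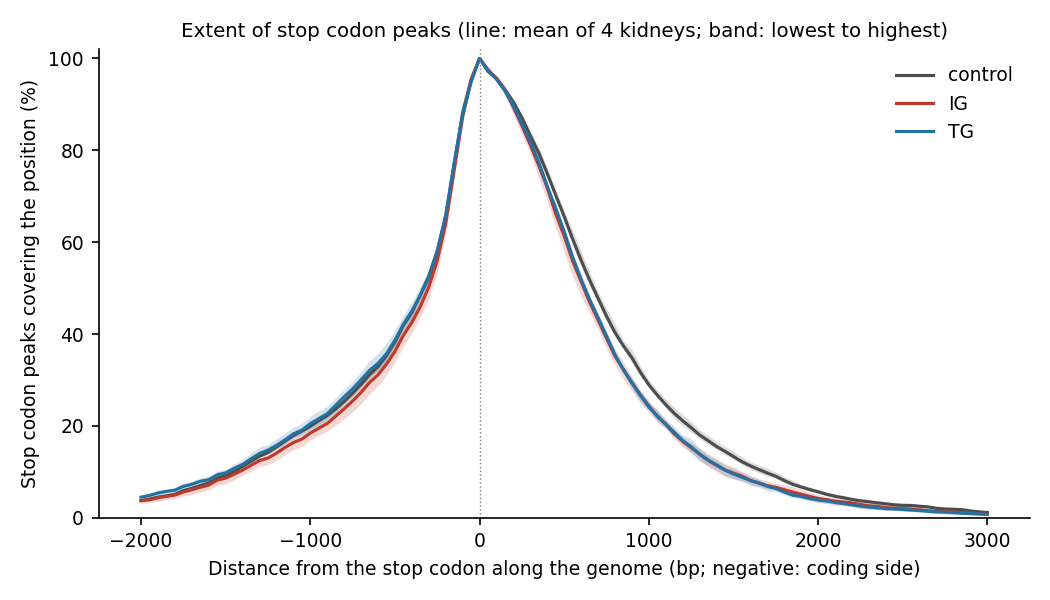
Share of stop codon peaks that cover each position around the stop codon, in percent, against the distance along the genome in bp, with the coding side negative. Lines are the means of 4 kidneys and bands run from the lowest to the highest kidney. At 1000 bp after the stop codon the shares were 29.0% (controls), 24.4% (IG) and 24.1% (TG), and on the coding side the 3 groups lie close together.

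Genes with a stop codon peak had long last exons. The exon that holds the stop codon had a median length of 1835 bp in the 3753 genes with a peak there in at least 1 kidney and of 2174.5 bp in the 486 with a peak in all 12. It was 1270 bp in the 3536 genes with peaks elsewhere in the transcript only, 881 bp in the 12811 genes with no listed peak and 1110 bp over all 20100 genes. Among genes with any listed peak, the share with one at the stop codon was 21.2% where that exon was under 200 bp and 63.5% where it was 4000 bp or longer. A longer exon gives a peak more room, so this relation is a description. The median coding length was 1533 nt in genes with a stop codon peak in at least 1 kidney, 2014.5 nt in those with one in all 12 and 1746 nt in genes with peaks elsewhere only, so its order depended on the number of kidneys asked for. The transcripts had a median of 8, 8 and 11 exons. The 3 stop codons were used in similar shares: TGA made up 50.04% of the stop codons with a peak, TAA 25.7% and TAG 24.3%, against 49.5%, 27.6% and 22.9% over all genes. By chromosome the share of genes with a stop codon peak lay between 15.9% (chromosome 7) and 22.2% (chromosome 8) on the autosomes and was 10.5% of 803 genes on the X and 5.41% of 148 genes on the Y chromosome.

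**Figure D2:**
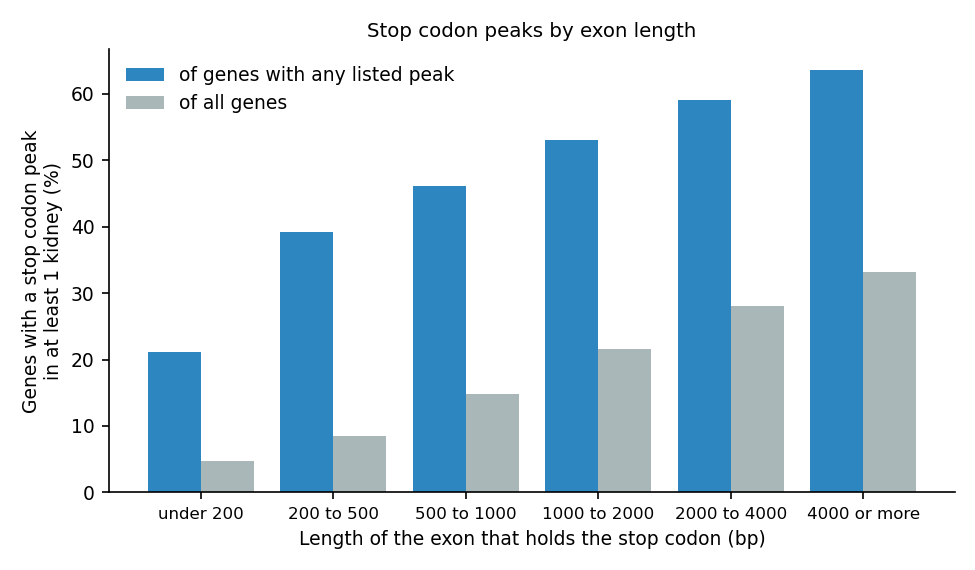
Share of genes with a stop codon peak in at least 1 kidney, in percent, by the length of the exon that holds the stop codon. Blue bars refer to genes with any listed peak and grey bars to all genes. The share rises with exon length in both, from 21.2% to 63.5% in the former and from 4.69% to 33.1% in the latter.

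The consensus was searched in 100 nt to each side of the stop codon in the spliced transcript, on the sense strand and, for comparison, on the opposite strand. Windows of genes with a stop codon peak in all 12 kidneys held 3.78 sites on average and those of genes with one in at least 1 kidney 3.66, against 3.23 in genes with peaks elsewhere only and 3.24 in genes with no peak. On the opposite strand the order was turned, with 2.21, 2.28, 2.51 and 2.58 sites. At least 1 site was present in 97.2%, 97.7%, 96.6% and 96.2% of the windows, so that the presence of a site hardly separated the sets. GGACT, 1 form of the consensus, was found in 27.1%, 27.0%, 21.9% and 22.1% of the windows and in 23.0% of the windows of all genes. On the opposite strand GGACT was in 18.8%, 17.5%, 18.9% and 18.6%. The windows had a mean GC content of 49.2%, 50.3%, 49.5% and 48.9%.

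**Figure D3:**
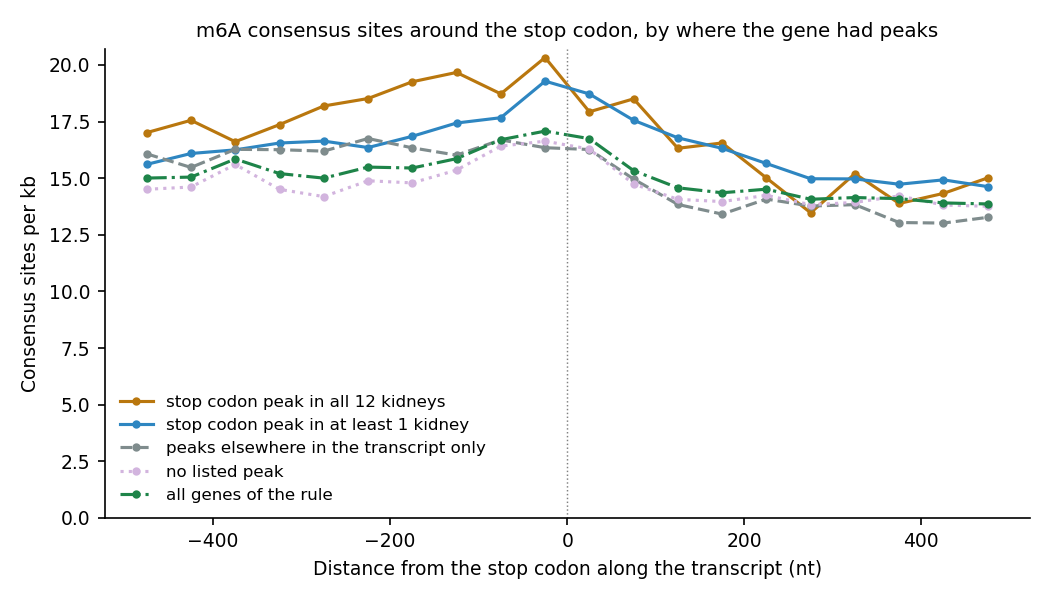
Sense-strand consensus sites per kb of transcript in bins of 50 nt, against the distance from the stop codon in nt, for genes grouped by where they had peaks. The lines of genes with stop codon peaks lie above those of genes with peaks elsewhere only or with no peak around the stop codon, where the window of 100 nt to each side held 3.78 and 3.66 against 3.23 and 3.24 sites.

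Within each kidney, stop codon peaks were compared with the other peaks of the same list, with a two-sided exact sign-flip permutation test over the 12 kidneys whose smallest p is 0.000488 and with Benjamini-Hochberg adjustment over 9 tests. Their median score percentile was 54.2 ± 1.44 (SD, n = 12), and that of all other peaks was 48.7 ± 0.465. The difference of 5.58 percentiles had the same sign in 12 of 12 kidneys (exact permutation p = 0.000488, adjusted p = 0.000732). Against the 8841 peaks that hold a start codon and no stop codon the difference was 4.90, positive in 11 of 12 kidneys (exact permutation p = 0.000977, adjusted p = 0.00126). Against the 1347 peaks that lie within a 3′ UTR it was 17.6, positive in 12 of 12 (exact permutation p = 0.000488, adjusted p = 0.000732). The higher scores went with width: stop codon peaks were wider than the other peaks by 950 bp in the median (12 of 12 kidneys), and by 433 bp without peaks that fill a whole exon. The rule selects peaks that reach across a stop codon, so width is a description. Among peaks of 500 bp or more, a limit chosen after seeing the data, the difference in percentile from all other peaks turned to -3.17 (exact permutation test, adjusted p = 0.00366) and that from start codon peaks to -2.53 (adjusted p = 0.0182). By width, the median percentile of stop codon peaks was 48.6 below 250 bp, where other peaks had 43.6, and 36.4 at 250 to 500 bp, where other peaks had 48.8. At 500 to 1000 bp it was 47.1 against 52.5, at 1000 to 2000 bp 56.9 against 58.8, and at 2000 bp or more 67.2 against 73.8 (means of 12 kidneys). Thus stop codon peaks scored above the other peaks of their list as a whole, and below other peaks of at least 500 bp.

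How often stop codon peaks were found again in other kidneys did not differ detectably from other peaks as listed, and the sign of the difference depended on which peaks were admitted. Of the stop codon peaks of a kidney, 56.2 ± 5.79% overlapped a peak in all 3 other kidneys of the group, against 55.5 ± 4.31% of other peaks (SD, n = 12). The difference of 0.671 percentage points was positive in 7 of 12 kidneys (exact permutation p = 0.462, adjusted p = 0.462). Against start codon peaks it was 2.39 points, positive in 8 of 12 (exact permutation p = 0.0884, adjusted p = 0.0994), and against peaks within a 3′ UTR 16.2 points, positive in 12 of 12 (exact permutation p = 0.000488, adjusted p = 0.000732). The values of the 4 kidneys of a group are computed from each other's lists. The 12 differences are therefore not independent, and the p-values for sharing are a description. The difference from all other peaks was -2.49 with lists cut to equal length, -5.96 with only scores of at least 71.3, the median score, and 6.62 without peaks that fill a whole exon (adjusted p = 0.0148, 0.00146 and 0.000549, exact permutation tests). In each width class stop codon peaks were shared less often than other peaks (means of 12 kidneys). The shares were 49.9 against 53.3% below 250 bp, 39.9 against 54.2% at 250 to 500 bp and 52.1 against 56.3% at 500 to 1000 bp. They were 58.7 against 61.1% at 1000 to 2000 bp and 64.3 against 69.8% at 2000 bp or more.

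Counted by stop codon, 731 of the 3753 had a peak in 1 kidney only and 486 in all 12. A peak in 4 of 4 kidneys was found at 1218 stop codons in controls, 911 in IG and 742 in TG. A peak in at least 2 of 4 was found at 2254, 1900 and 1587. Stop codons present in more kidneys also had higher scores, with a median percentile of 17.5 for those seen in 1 kidney and 75.6 for those seen in 12. Any 2 control kidneys shared on average 62.4% of the stop codons with a peak in either (range of 6 pairs, 60.5 to 63.3%). Within IG the mean was 55.4% (53.2 to 56.7%), within TG 54.3% (51.9 to 56.8%), between IG and control kidneys 46.3% (44.97 to 48.3%), between IG and TG kidneys 52.0% (48.4 to 56.4%), and between TG and control kidneys, the lowest of these means, 43.9% (41.1 to 46.9%). No pair of an IG and a control kidney reached the lowest value within either group. These pairs share kidneys and are no independent values. Lists of unequal length also limit this share, and TG and controls differed most, with means of 1440 and 2027 stop codon peaks. The order of the means between groups is thus a description.

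The 12 stop codons with the highest mean score percentile among those with a peak in all 12 kidneys belonged to genes of several kinds. Atpif1, the inhibitory factor of the mitochondrial ATP synthase, Hmgn5, a nucleosome-binding protein, Ppig, a nuclear cyclophilin, and Rbbp6, a ubiquitin ligase of mRNA 3′ end processing, had a score of 3100 in every kidney. Tchh, which encodes trichohyalin, a structural protein of hair follicles, had 3100 in 11 kidneys and 3138 in TG 2. The other genes of this set were Sec62, of protein import into the endoplasmic reticulum, the chaperones Pdia4 and Erp29 of the same compartment, the splicing regulator Nsrp1, Phf3, which binds RNA polymerase II, Ptms and Ubl3. Their peaks were not equally wide: that of Atpif1 covered 269 bp, the whole of its stop codon exon, in all 12 kidneys, and that of Tchh covered 4209 to 5685 bp of an exon of 5685 bp. Erp29 scored 3100 in each control kidney, 3178, 3100, 3100 and 3100 in IG, and 1529, 2238, 1568 and 2072 in TG. The 4 TG kidneys lay below the other 8 at this gene, also as percentiles of each list, with 96.5 to 97.8 in TG and 99.1 to 99.9 in the others. Nsrp1 had 2527, 1951, 3100 and 2208 in controls and 3100 in all 8 other kidneys.

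The number of stop codon peaks per kidney was highest in controls and lowest in TG. The 4 control kidneys had 1952, 1911, 2075 and 2170 stop codon peaks. The 4 IG kidneys had 1603, 1701, 1966 and 1627. The 4 TG kidneys had 1473, 1325, 1323 and 1639. IG 3 lay within the range of controls and TG 4 within that of IG, so that neighbouring groups overlapped. The difference of the means was -303 in IvC (2027 ± 118 against 1724 ± 166) and -284 in TvI (1440 ± 150 in TG), each with an exact permutation p = 0.0857 (adjusted p = 0.137 over 8 tests, n = 4 per group). The smallest p that 4 against 4 kidneys allow is 0.0286. The share of a kidney's peaks that hold a stop codon was 22.6 ± 0.325% in controls, 23.2 ± 0.735% in IG and 22.5 ± 1.30% in TG. It differed by 0.598 points in IvC (exact permutation p = 0.2, adjusted p = 0.267) and by -0.696 in TvI (exact permutation p = 0.429, adjusted p = 0.490). Neither difference passed the test. With lists cut to equal length the difference in number was -16.5 in IvC and -78.5 in TvI, and that in share -0.280 and -1.33 points.

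Stop codon peaks of IG kidneys were narrower than those of controls in every kidney, a difference that did not pass after adjustment. The median width was 1209.5, 1197, 1185 and 1216.5 bp in controls. In IG it was 1085, 1129, 1105.5 and 1113 bp. In TG it was 1180, 1161, 1142 and 1125 bp. Controls and IG did not overlap, and TG lay below controls and overlapped IG at 1 kidney, TG 4. The difference was -93.9 bp in IvC (exact permutation p = 0.0286, the smallest possible, adjusted p = 0.114) and 43.9 bp in TvI (exact permutation p = 0.0571, adjusted p = 0.137). All other peaks had a median width of 199.75 bp in controls and 209.25 bp in IG, a difference of 9.5 bp with the opposite sign (exact permutation p = 0.0571, adjusted p = 0.114 over 16 tests of edges and widths chosen after seeing the data). The median score percentile of stop codon peaks was 55.7 ± 0.365 in controls, 53.4 ± 0.799 in IG and 53.5 ± 1.53 in TG. The difference was -2.32 in IvC, without overlap of the kidneys (exact permutation p = 0.0286, adjusted p = 0.114), and 0.138 in TvI (exact permutation p = 0.914, adjusted p = 0.914). Without whole-exon peaks the difference in IvC was -0.254 and did not pass.

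The peaks of IG ended nearer to the stop codon on the 3′ side than those of controls, a difference that did not pass after adjustment. It was seen at the 486 stop codons with a peak in all 12 kidneys, where the same genes enter every value. The median distance from the stop codon to the 3′ end of the peak was 664, 652.5, 626 and 664 bp in controls. It was 595.5, 604.5, 586.5 and 614 bp in IG, and 621, 651, 617.5 and 609 bp in TG. The control and IG kidneys did not overlap, and TG overlapped both. The difference in IvC was -51.5 bp (exact permutation p = 0.0286, adjusted p = 0.0762 over the 16 tests) and that in TvI 24.5 bp (exact permutation p = 0.0571, adjusted p = 0.114). Over all stop codon peaks the difference on the 3′ side was -59.6 bp in IvC (exact permutation p = 0.0286, adjusted p = 0.0762) and 7.38 bp in TvI (exact permutation p = 0.743, adjusted p = 0.792). On the coding side the distance was 459.25 bp in controls and 459.5 bp in IG, a difference of 0.250 bp (exact permutation p = 1, adjusted p = 1). Over all stop codon peaks, whose genes differ between kidneys, the coding side reached 326 bp in controls and 300.1 bp in IG, a difference of -25.5 bp (exact permutation p = 0.114, adjusted p = 0.203). The share that started at the 5′ edge of the exon differed by 1.27 points in TvI, 91.6% in TG against 90.4% in IG (exact permutation p = 0.0286, adjusted p = 0.0762). The median width at these stop codons was 1270 bp in controls, 1198 bp in IG and 1249 bp in TG, with differences of -72.1 bp in IvC and 51.0 bp in TvI (exact permutation p = 0.0286 and adjusted p = 0.0762 for each). Gene by gene the shift was small and mixed: 256 of the 486 were narrower in IG than in controls, 143 wider and 87 equal, with a median difference of -3.38 bp. In TvI 143 were narrower, 253 wider and 90 equal, with a median of 3.13 bp. Over all stop codon peaks, 19.5 ± 0.539% reached the 3′ edge of the exon in controls, 16.7 ± 0.923% in IG and 17.5 ± 0.786% in TG (IvC difference -2.76 points, exact permutation p = 0.0286, adjusted p = 0.0762). Control lists were also the longest. With lists cut to equal length the difference in median width over all stop codon peaks was -142 bp in IvC (exact permutation test, adjusted p = 0.152) and 8.63 bp in TvI (adjusted p = 0.657), and the part of depth was not tested.

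**Figure D4:**
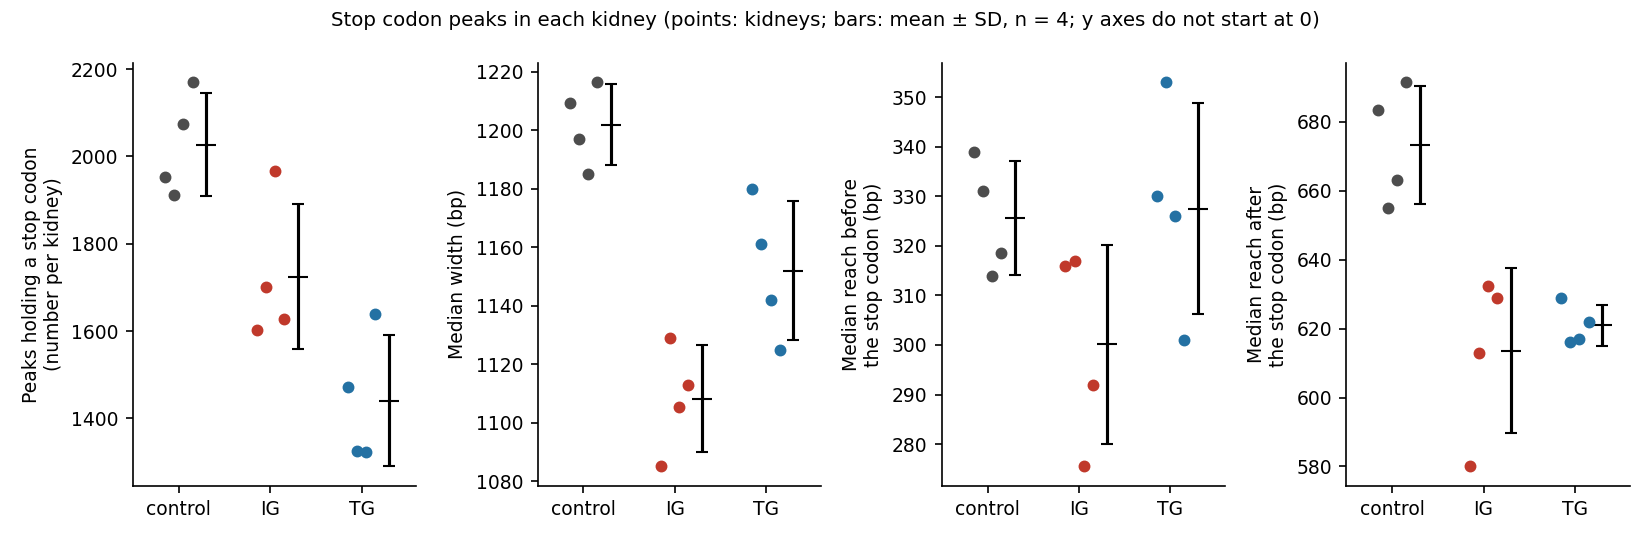
Number of stop codon peaks, their median width and their median reach before and after the stop codon in bp, for each kidney (points) with the mean and SD of 4 kidneys (bars). Control and IG kidneys do not overlap in width or in reach after the stop codon, with 655 to 691.5 bp in controls and 580 to 632.5 bp in IG.

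The presence of a peak was then compared stop codon by stop codon. In IvC, 71 of 3596 stop codons had a peak in 4 of 4 IG kidneys and 0 of 4 controls (gained, 1.97%, background over all 16332 stop codons and other peak loci 1.33%), and 122 were lost in the same way (3.39%, background 2.71%). Such a pattern has a Fisher's exact p of 0.0286. After Benjamini-Hochberg adjustment over the whole table no stop codon was called, with a lowest adjusted p of 0.707 (Fisher's exact test), while 660 features had an unadjusted p under 0.05. With a difference of at least 3 of 4 kidneys, 185 stop codons were gained (5.14%, background 3.86%) and 378 lost (10.5%, background 8.92%). In TvI, 9 of 3041 stop codons were gained in 4 of 4 against 0 of 4 kidneys (0.296%, background over 13572 features 0.221%) and 19 lost (0.625%, background 0.449%). At least 3 of 4 kidneys differed at 40 gained (1.32%, background 1.27%) and 111 lost stop codons (3.65%, background 3.18%). The lowest adjusted p in TvI was 1 (Fisher's exact test), with 91 features at an unadjusted p under 0.05. The share of stop codons was above the background at each of these 8 counts, which overlap, and no test of that difference was made. Presence at a stop codon needs a peak that contains it, whereas other loci join peaks by an overlap of 1 bp. A shift of a peak end can thus change the former and not the latter, so the 2 shares are not like for like. The background also includes the stop codons. With lists cut to the 5901 best peaks of each kidney 66 stop codons were gained and 76 lost in IvC, and in TvI the balance turned, with 17 gained and 10 lost. With only the peaks at or above the median score of all lists, 27 were gained and 76 lost in IvC, and 6 gained and 10 lost in TvI.

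At most of these stop codons the group without the stop codon peak had no listed peak on any exon of the transcript with the longest coding sequence. This held for 52 of the 71 gained and 90 of the 122 lost in IvC, and for 4 of 9 and 13 of 19 in TvI. Here and below, other peaks in a gene were sought on the exons of that transcript only. All 4 kidneys of the group without the stop codon peak had a peak elsewhere in the gene in 13 of 71 and 10 of 122 in IvC, and in 2 of 9 and 2 of 19 in TvI. A peak on the same exon that missed the rule was present in at least 1 kidney of that group for 2, 10, 1 and 1 genes. Scores were mostly low, with a median of the mean score of 77.0 for gained and 83.0 for lost stop codons in IvC and of 47.2 and 50.4 in TvI.

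**Figure D5:**
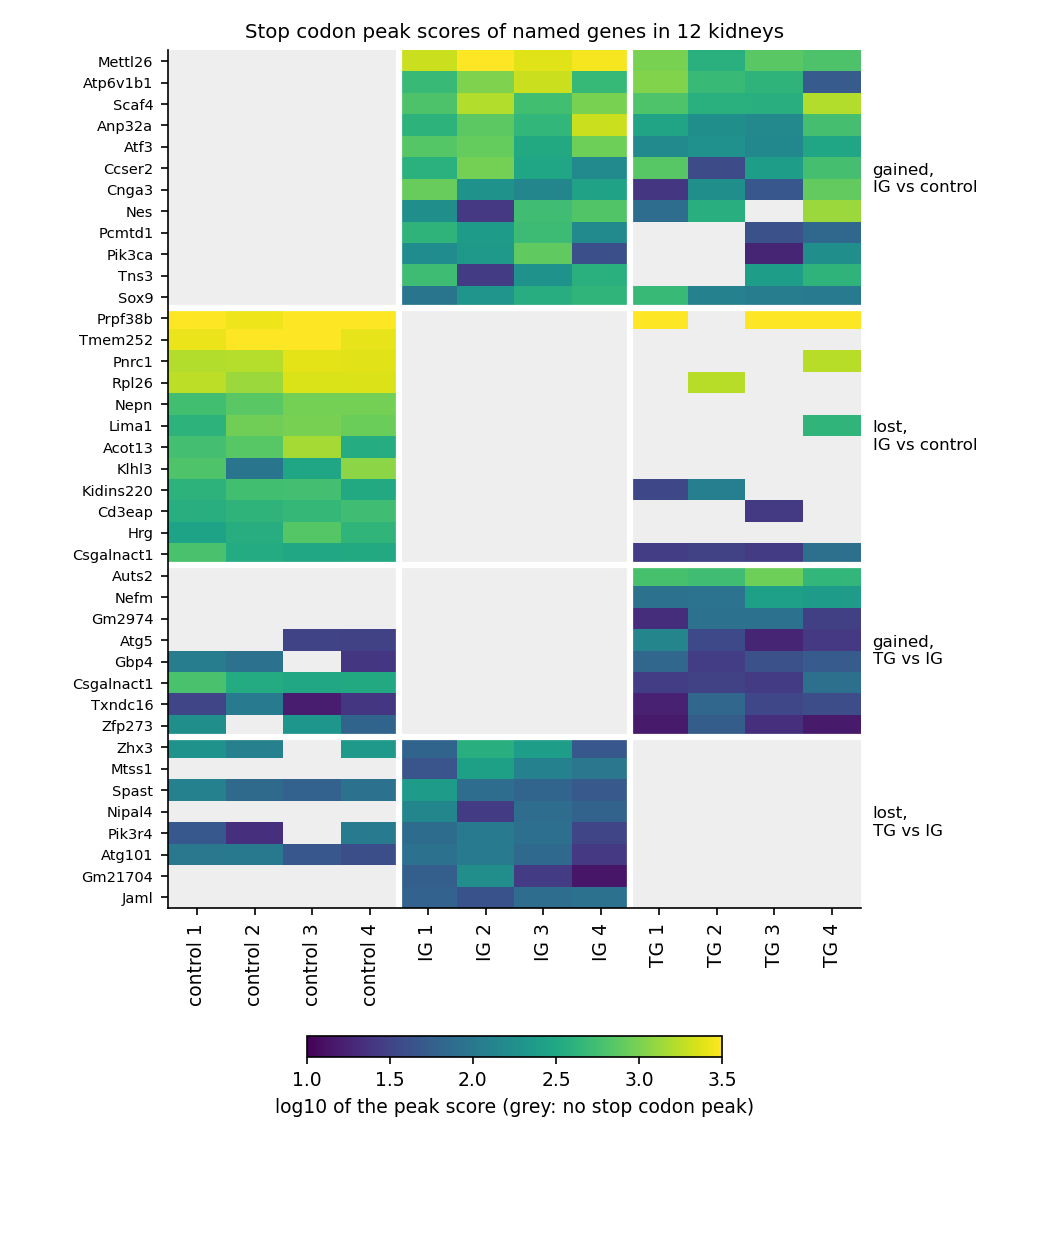
Log10 of the score of the stop codon peak in each of the 12 kidneys, for the named genes whose presence separates the kidneys of a comparison fully. Grey fields have no stop codon peak, and white lines separate groups and directions. The lost genes Prpf38b and Tmem252 reach 2540 to 3100 in the 4 controls and have no peak in IG.

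Stop codon peaks gained in IG with the highest scores included transcription factors, a proton pump subunit and structural proteins. Mettl26, of the methyltransferase-like family, had scores of 1992, 3100, 2364 and 2924 in IG and of 984.2, 383.4, 723.2 and 633.5 in TG. The 4 TG scores lay below the 4 IG scores, and no control kidney had a peak on any exon of its transcript. Its stop codon lies on chromosome 17 at 25876995 to 25876997, in the last of 6 exons, and the peak had a width of 509 bp in all 8 kidneys. Atp6v1b1 encodes the B1 subunit of the proton pump of intercalated cells. It had 482.6, 1048, 1999 and 478.2 in IG and 1058, 485.4, 420.1 and 52.64 in TG, with overlap between the groups and no control peak. Scaf4, which acts in transcription termination, had 627.2, 1621, 547.6 and 982.7 in IG and 643.2, 389.1, 368.8 and 1620 in TG, and 2 control kidneys had another peak in the gene.

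Atf3, a transcription factor induced by stress, had scores of 692.8, 808.2, 332.8 and 895.9 in IG and of 154.6, 183.9, 145.8 and 297.3 in TG. No control kidney had a peak in the gene, the TG scores lay below all IG scores, and the peak covered the whole stop codon exon of 1384 bp in each kidney. Sox9, a transcription factor of tubular repair, had 93.07, 201.9, 362.4 and 433.2 in IG and 485.3, 124.2, 112.1 and 107.6 in TG, with overlap. In Anp32a, an acidic nuclear phosphoprotein gene, and in Ccser2 and Tns3, the latter for a focal adhesion protein, all 4 controls had another peak in the gene. The difference there lay at the stop codon and not in the presence of any peak. Cnga3, for a subunit of a cyclic nucleotide-gated channel, Pcmtd1 and Pik3ca, for the catalytic subunit of a phosphoinositide 3-kinase, completed the set. When peaks that fill a whole exon were left out, no difference in presence remained at Mettl26 and Atf3. Of the 12 genes, 8 had the peak in 4 of 4 TG kidneys, Nes in 3, and Pcmtd1, Pik3ca and Tns3 in 2.

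At Nes, which encodes the intermediate filament nestin, the peak reached further in IG than in controls. Its last exon of 5031 bp carried a peak of 4131 to 4536 bp in all 4 controls, which ended 476, 71, 194 and 310 bp before the stop codon. In IG the peak had scores of 175.7, 26.26, 539.4 and 666.5 and contained the stop codon. The control peaks on the same exon had scores of 296, 386.65, 42.74 and 602.64, so that scores overlapped and only the 3′ end of the peak separated the groups.

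The strongest stop codon peaks lost in IG were near the top of the control lists. Prpf38b, for a pre-mRNA processing factor, had 3100, 2730, 3100 and 3100 in controls and 3100 in TG 1, TG 3 and TG 4. No IG kidney and not TG 2 had a peak on any exon of its transcript. The stop codon lies on chromosome 3 at 108903919 to 108903921, in the last of 6 exons, and the peaks were 1392 to 1822 bp wide. Tmem252, a transmembrane protein gene with 2 exons, had 2648, 3100, 3100 and 2540 in controls and no peak in any IG or TG kidney. Pnrc1, for a coregulator of nuclear receptors, had 1622, 1666, 2481 and 2451 in controls, 1694 in TG 4 and no other. Rpl26, of the large ribosomal subunit, had 1795, 1317, 2278 and 2339 in controls and 1699 in TG 2. The peak covered the stop codon exon of 169 bp, and reads from copies of a ribosomal protein gene can be shared, so its value is uncertain. The presence in TG thus ranged from 0 to 3 of 4 kidneys among these 4 genes. When peaks that fill a whole exon were left out, no difference remained at Pnrc1, Rpl26, Acot13 and Csgalnact1.

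The other lost stop codons of this set belonged to Nepn, for a matrix protein of the small leucine-rich family, Lima1, which binds actin, Acot13, an acyl-CoA thioesterase gene, Kidins220, a scaffold of neurotrophin signalling, Cd3eap, for a subunit of RNA polymerase I, and Hrg, a plasma glycoprotein gene. Their mean control scores lay below those of the 4 genes above, and the peak was present in 0 to 2 TG kidneys. Nepn had 558.2, 731, 949.1 and 939.8 in controls and none elsewhere. Hrg had 281.4, 365.1, 692.9 and 436.8 in controls and none elsewhere. Csgalnact1, for an enzyme of chondroitin sulphate synthesis, had 604.8, 347.2, 309.7 and 326.6 in controls, none in IG, and 28.76, 30.39, 27.94 and 84.61 in TG. It is the gene that was both lost in IvC and gained in TvI by 4 of 4 kidneys with the highest scores, and its TG scores lay below each control score.

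At Klhl3 and a few other genes IG kidneys had a peak on the same exon that did not hold the stop codon. Klhl3, the adaptor by which a ubiquitin ligase recognises WNK kinases, had scores of 653.9, 94.44, 293.2 and 1164 in controls, with a peak of 984 bp in each. In IG 1, IG 3 and IG 4 a peak of 883, 835 and 686 bp lay on the same exon and began 72, 120 and 269 bp after the stop codon. All 4 TG kidneys also had a peak on that exon without the stop codon. Tyw3, Shisa3 and Tram2, which were not among the genes chosen by score and were picked after their values were seen, showed the same arrangement in 4, 4 and 3 IG kidneys, with peaks that began 969 to 1084, 1379 to 1688 and 159 to 228 bp after the stop codon. Enc1 and Phlda1, picked in the same way, were lost by the rule alone, since the peak of all 4 IG kidneys held the stop codon and the start codon together. At Phlda1 it had scores of 545.4, 810.83, 352.53 and 106.29.

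Few stop codons separated TG from IG, and their scores were lower. Auts2, which encodes a protein associated with Polycomb complexes, had 589, 538.6, 891.7 and 449.8 in TG and no stop codon peak in the 8 other kidneys. All control and IG kidneys had another peak in the gene, as did 3 TG kidneys. Nefm, for the medium neurofilament protein, had 88.48, 90.38, 258.3 and 236.8 in TG. All 4 IG kidneys had a peak on the same exon, with scores of 46.86, 49.62, 38.42 and 61.51. It ended 227, 4 and 108 bp before the stop codon in IG 1, IG 3 and IG 4 and within it in IG 2. Thus a few bases decided the absence in IG 2 and IG 3, and not in IG 1 and IG 4. Atg5, of the conjugation system of autophagy, had 138.5, 35.71, 18.33 and 26.27 in TG and 32.74 and 30.83 in control 3 and control 4. Gbp4, an interferon-induced GTPase gene, Txndc16 and Zfp273 had mean TG scores of 47.2, 38.9 and 26.7 and were present in 3, 4 and 3 control kidneys. Gm2974 is one of many near-identical genes that can share reads, so its TG scores of 21.09 to 86.77 are uncertain.

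Among the stop codons lost in TG, Spast and Atg101 had a peak in all 8 control and IG kidneys. Spast, for a microtubule-severing enzyme, had 124.2, 73.98, 61.61 and 86.01 in controls and 240.5, 78.55, 65.35 and 50.03 in IG. Atg101, of the complex that starts autophagy, had 100.9, 103.5, 47.65 and 39.75 in controls and 86.38, 107, 71.79 and 25.9 in IG. Zhx3, a transcriptional repressor gene, and Pik3r4, for the regulatory subunit of the class III phosphoinositide 3-kinase, had a peak in 3 controls and 4 IG kidneys. Mtss1, for a protein that binds actin and curved membranes, had 45.36, 261.9, 125.4 and 97.68 in IG only, and all 12 kidneys had another peak in the gene. Nipal4, of a family of magnesium transporters, had 140.2, 27.7, 77.66 and 62.33 in IG only, and Jaml, for a junctional adhesion molecule of leukocytes, 61.77, 43.02, 78.87 and 85.46. Gm21704 on the Y chromosome was also found in IG only, with 56.91, 170.8, 27.37 and 14.31, and Gm21693 beside it with 14.14 to 30.89. Both belong to a multicopy family whose reads cannot be assigned with certainty.

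Across both comparisons, 42 stop codons were gained in IvC and lost in TvI and 14 were lost and then gained, each by at least 3 of 4 kidneys. As both comparisons use the same IG kidneys, a list of IG that stands apart produces such patterns, and no test was made of them. Those not yet named among the 10 with the largest changes were Cox19, an assembly factor of cytochrome oxidase, with 48.52, 24.66, 20.54 and 16.09 in IG only, and Serbp1, for an RNA-binding protein, with 45.14, 256.6, 306.6 and 258.5 in IG and 74.24 in TG 3.

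Gene lists that fit the tissue and the drugs were counted in the same way. A stop codon peak in at least 1 kidney was found for 18.7% of all 20100 genes and 51.5% of the 7289 genes with any listed peak. In IvC, 3.86% of all features were gained and 8.92% lost by at least 3 of 4 kidneys, and in TvI 1.27% and 3.18%, so the few members called in any list give no result about it. Among the AP-1, immediate early and Kruppel-like genes, many of which respond quickly to stimuli, it was found for 20 of 31 genes, or of 24 with any peak. Those gained in IvC by at least 3 of 4 kidneys were Atf3 and Egr2, and those lost were Fosl2, Klf12, Zfp36 and Zfp36l1, while Klf5 was lost in TvI. Fosl2 had 196.9, 189.2, 93.47 and 147.9 in controls, 247.2 in IG 1 and none in the other 7 kidneys. Zfp36, which promotes the decay of AU-rich transcripts, had 439.3, 385.7 and 164.1 in 3 controls and none in IG or TG. Klf5, an epithelial transcription factor, had 39.77, 117.3, 87.06 and 55.38 in controls, 931.6, 154.4, 727.9 and 89.43 in IG, and 356.3 in TG 4 only, and every kidney had another peak in that gene.

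Of the tubular injury genes 9 of 23 had a stop codon peak, or of 14 with any peak. Egf, a growth factor of the distal nephron, was gained in IvC with 1025, 117.7 and 527.6 in 3 IG kidneys, Sox9 was gained, and Krt19, a keratin gene, was lost, with 14.58 to 42.31 in 3 controls. Of the p53 target genes 7 of 28 had one, with 2 lost in IvC. Plk2, a stress-induced kinase gene, had 204, 73.5, 34.56 and 102.8 in controls and none in the other 8 kidneys. Sesn2, for a sensor of leucine and stress, had 13.2, 413.9, 199.1 and 105 in controls and 464.8 in IG 1 and 86.38 in TG 1. In neither list did a stop codon change by 3 of 4 kidneys in TvI.

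Among the chromatin regulators 10 of 51 genes had a stop codon peak in all 12 kidneys, beside 486 of all 20100 genes. A peak in at least 1 kidney was found at the stop codon of 21 of them, and 49 had any listed peak, beside 7289 of all genes. In TvI the peaks of Hdac4, for a histone deacetylase, and Tet3, for a DNA demethylase, were lost in 3 of 4 kidneys. Tet3 had 243, 201.7, 316.1 and 473 in controls, 60.57, 283.8, 145.6 and 44.36 in IG and 435.4 in TG 2 alone. Of the splicing factors 7 of 43 had one, and Prpf38b was the only member lost in IvC and gained in TvI by at least 3 of 4 kidneys. Pnisr had a peak in all 12 kidneys, with 221.3, 1512, 822.3 and 1615 in controls and 1455 to 2602 in the others, and Srsf11 had one in 11 kidneys.

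For the machinery of m6A itself, 5 of 20 genes had a stop codon peak, or of 15 with any peak, and none changed by 3 of 4 kidneys in either comparison. Ythdc1, the nuclear reader, had 1003, 1468, 2102 and 1437 in controls, 3100, 2404, 2585 and 3100 in IG, and 2953, 2731, 1872 and 3100 in TG. As percentiles of each list the groups overlapped, with 94.7 to 98.1 in controls and 97.7 to 99.2 in IG. Cbll1, of the writer complex, had 535.5 to 1036 in controls, 282 to 1013 in IG and 205.5 to 1470 in TG, with overlap. A stop codon peak was found for 6 of 35 genes of fatty acid oxidation, or of 13 with any peak, for 8 of 38 tubule transporters, or of 15, and for 6 of 25 acute phase, coagulation and complement genes, or of 15. These shares lie near those of all genes, and none of these stop codons changed by 3 of 4 kidneys. Cpt2, for a carnitine palmitoyltransferase, was present in 11 of 12 kidneys, with 1222, 953.8, 929.4 and 635.5 in controls, 79.05, 201.2, 66.79 and 35.25 in IG and 101, 64.35 and 222.4 in TG 1, TG 3 and TG 4. All control scores lay above all others at this gene, also as percentiles of each list, with 90.4 to 95.9 in controls, 31.4 to 73.6 in IG and 49.2 to 75.3 in TG. Ppargc1a, a coactivator of mitochondrial genes, was present in 2, 4 and 3 kidneys, and Slc9a3, the apical sodium-proton exchanger, in 3, 3 and 4. Slc16a7 was present in 0, 2 and 1 kidneys of controls, IG and TG, C1ra in 4, 2 and 2, and Hp, for haptoglobin, in 0, 1 and 2.

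No gene of the respiratory chain had a stop codon peak, of 29 measured and 2 with any listed peak. Of the 29 ribosomal protein genes on the list 3 had one, and no other gene of the list had any peak. The list does not hold every ribosomal protein gene, and Rpl26, described above, is not on it. Rpl4 had 286.7, 681.5, 245.2 and 352.8 in controls and none in IG or TG, Rpl5 had 118 in IG 1 and 289.2 in TG 4, and Rps6 had 20.99 in control 4. The transcripts of both lists are abundant in kidney, and the lists of peaks do not say whether their levels differed.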

How the data were processed

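MeRIP-seq peak lists of 12 kidneys (4 control, 4 IG and 4 TG) were used, and the 12 input libraries of the 24 samples were not analysed here. Per the labels and the methods of the study, reads were trimmed with cutadapt 1.9.3, aligned to mm10 with HISAT2 2.0.4, and peaks were called per library with MACS, whose version, threshold and control library are not given in the sources used here. The deposited score is 10 times the negative log10 of the p-value, from 13.02 to 3233.06, and no counts were given. Thus depth is unknown, no interval could be computed for a single peak, and more deeply sequenced libraries can list more and wider peaks.

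Starts were read as 0-based. Stop codons, exons and genes came from the GENCODE M21 annotation of GRCm38 and sequences from the GRCm38 genome. Of 21853 protein-coding genes, 251 had no annotated stop codon in the chosen transcript and 1502 had 1 exon, which left 20100. A stop codon was present in a kidney if a peak on its strand held it. Other peaks of a gene were counted only on the exons of the same transcript. All other peaks were joined across kidneys into loci by an overlap of at least 1 bp, and stop codons and loci together made the table for Fisher's exact tests. Per-kidney values were compared with two-sided exact permutation tests over 70 arrangements, and within kidneys with exact sign-flip tests, with Benjamini-Hochberg adjustment and a threshold of 0.05. Groups came from the labels, and the members and gene lists were chosen with earlier results of these data known. The sequence at 1 of the chosen stop codons is not reported here. Genes were named by the highest mean score among stop codons with a peak in 4 of 4 against 0 of 4 kidneys (12 per direction in IvC, 8 in TvI), by score percentile in all 12 kidneys, by opposite changes (10) and, from the lists, by a difference of at least 3 of 4 kidneys. Where a list had fewer than 2 of these, up to 2 further members with a peak in the most kidneys were added. Gain or loss in at least 3 of 4 kidneys was counted with no test.

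Alternatives were equal list lengths, a score minimum, no whole-exon peaks, a reach of 50 bases on both sides of the stop codon, any transcript, either strand, any peak on the exon, a block for the replicate number, and lists without 1 kidney. Peaks of at least 500 bp, edges and stop codons with peaks in all kidneys were chosen after seeing the data. The labels do not state that replicate numbers pair the mice. The tests and calls were tested on simulated data. Tests ran in scipy 1.17.1 with Python 3.11.15, sequences were read with samtools 1.23.1, and figures were drawn with matplotlib 3.10.9.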

Additional observations from a re-analysis of the deposited data

Results flagged for a closer look

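Of 67 groups of 4 values examined, 5 held a kidney far from the other 3, and chance alone marks about 1 in 20 groups. Each of the 5 is the score of 1 stop codon peak. Atg5 reached 138.5 in TG 1, against 18.33 to 35.71 in the other TG kidneys. Csgalnact1 reached 604.8 in control 1, against 309.7 to 347.2 in the other controls, and 84.61 in TG 4, against 27.94 to 30.39. Prpf38b had 2730 in control 2, against 3100 in the other 3 controls, and 3100 is the value at which most of the highest scores lie. Spast reached 240.5 in IG 1, against 50.03 to 78.55 in the other IG kidneys. Leaving out any of these kidneys left the pattern of presence at these genes as it was. No per-kidney number, share, width or percentile of stop codon peaks held such a kidney.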

How the results depend on the processing

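Of the 8 differences between groups in number, share, width and score percentile, 0 passed the adjusted threshold under any alternative, and all kept their direction except 2. The difference in share in IvC was -0.280 with equal list lengths, -0.400 with scores at or above the median and -0.359 without whole-exon peaks. The difference in score percentile in TvI was -0.124 without IG 2, -0.0161 without TG 1, -0.0926 without TG 3 and -0.230 without TG 4. Within kidneys, the differences in score percentile and sharing from peaks within a 3′ UTR kept their direction and side of the threshold. The differences in width, which the rule favours by selecting peaks that span a stop codon, stayed positive and are a description. The sharing of stop codon peaks against all other peaks was -2.49 with equal lists, -5.96 with scores at or above the median, -2.53 among peaks of at least 500 bp and 6.62 without whole-exon peaks. Against start codon peaks it was -0.130, -2.54, -1.73 and 4.77 under the same settings. The score percentile among peaks of at least 500 bp differed by -3.17 from all other peaks and by -2.53 from start codon peaks. The cause of these turns was not tested.

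Counts of stop codons with a peak in 4 of 4 against 0 of 4 kidneys were, with equal lists, 76 lost in IvC and 17 gained and 10 lost in TvI. With scores at or above the median they were 27 gained and 76 lost in IvC and 10 lost in TvI. Differences of at least 3 of 4 kidneys were, with equal lists, 207 lost in IvC and 62 lost in TvI, and with scores at or above the median 97 gained and 227 lost in IvC and 70 lost in TvI. The 50 bases of reach, the other transcripts, either strand and any peak on the exon left each of these counts within 1.5 times.

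When 1 kidney was left out, the differences ranged as follows. In number they were -383 to -255 in IvC and -351 to -204 in TvI, in share 0.303 to 0.855 and -1.27 to -0.220, in width -101 to -86.2 and 34.5 to 52.9 bp, and in percentile -2.68 to -2.06 and -0.230 to 0.889. The counts of 4 of 4 against 0 of 4, read as all against none of the kidneys left, were 78 to 91 gained and 136 to 172 lost in IvC, and 10 to 17 gained and 25 to 37 lost in TvI. A difference of at least 3 kidneys, harder to reach in the direction of the group left with 3 kidneys and easier in the other, gave 88 to 228 gained and 148 to 490 lost in IvC and 10 to 69 gained and 25 to 220 lost in TvI.

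Of the 40 named stop codon patterns, 37 were kept with equal lists, 23 with scores at or above the median and 29 without whole-exon peaks. With 50 bases of reach 39 were kept, with other transcripts 39, on either strand 40 and with any peak on the exon 36. Leaving out 1 kidney cannot break a pattern chosen as all against none, so that all 40 were kept there is no check. At Mettl26, Atf3, Pnrc1, Rpl26, Acot13 and Csgalnact1 no difference in presence in IvC was left without whole-exon peaks. With the replicate number as a replicate block, the adjusted p (exact sign-flip permutation test) for the number, share, width and percentile was 0.2 in IvC in each case. As 4 pairs cannot give a p below 0.125, no difference could pass. The counts of 71 gained and 122 lost cannot change under a block, since 4 of 4 against 0 of 4 kidneys holds for any pairing. Deviations of same-numbered kidneys correlated by -0.0400 to 0.0143 in IvC and -0.0261 to 0.0691 in TvI. Kidneys with different numbers gave -0.0180 to 0.0341 and -0.0646 to 0.0537. The 4 same-numbered pairs of a comparison are too few to show whether the numbers pair the mice. Depth is unknown in these lists, so how many missing peaks come from shallow libraries cannot be told.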
